A study of Mus musculus with 8 samples.

Results

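Peaks found in Cre mock only were the 34620 regions of the Cre mock peak list that shared not even 1 bp with a peak of the GFP mock, GFP DOX or Cre DOX list. They were 38.0% of the 91097 Cre mock peaks (exact 95% interval, 37.7 to 38.3%) and came from 344010 peaks in the 4 lists together. The members were selected on measured values, the presence or absence of a called peak in each library, so their peak scores, their widths and their absence from the other lists are given as a description and not as a finding. DRIP-seq (DNA-RNA hybrid immunoprecipitation with the S9.6 antibody, then sequencing) had been run on a line of mouse embryonic fibroblasts (MEFs) that carried a floxed *Rtel1* (Rtel1 F/F) and a doxycycline-inducible wild-type RNaseH1 fused to GFP (WT RNH1-GFP). The 4 conditions were GFP mock (GFP adenovirus, no RNaseH1 induction), GFP DOX (GFP adenovirus, then doxycycline at 2 μg/ml from 48 h after infection for a further 48 h), Cre mock (Cre-GFP adenovirus, which deletes the floxed *Rtel1*, no induction) and Cre DOX (Cre-GFP adenovirus, then the same doxycycline course). All 4 carried the floxed alleles and the transgene, and the age and sex of the source embryos are not given in the sources used here.

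Each condition was 1 library made from 3 pooled immunoprecipitations of 1 cell line. No test between conditions was therefore possible, and the intervals below cover counting error only, not the spread between cultures. The read depth of each library is unknown because the lists hold no counts. The lists also differed in size, from 60219 peaks (GFP DOX) to 105081 (Cre DOX), and in the narrowest peak they held, from 106 bp (GFP mock) to 213 bp (Cre DOX). The Cre mock list started at 132 bp. The peaks found in a single list were 37.8% of the GFP mock list, 21.8% of GFP DOX and 46.2% of Cre DOX. These mirrored sets were formed by the same rule and are given beside the members where they bear on a comparison. A comparison of 2 peak lists cannot tell a hybrid that is absent from one that lay just under the calling threshold.

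An R-loop is an RNA-DNA hybrid together with the displaced single DNA strand. It forms mostly where RNA polymerase is active, with hot spots just after start sites and around the ends of genes, and is favoured by G-rich RNA, since such hybrids are stable. The displaced strand can fold into a G-quadruplex (G4), a 4-stranded structure of stacked guanines. RTEL1 is a helicase that unwinds G4s and telomeric loops, and RNaseH1 degrades the RNA of a hybrid. The comparison asks which regions were called after Cre infection without RNaseH1 induction and in none of the other conditions.

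The sequences of 5 members are given as examples of high-scoring regions. They are the 4 highest-scoring members in promoters of protein-coding genes and the highest intergenic one, among members of 300 bp or less that lay outside annotated untranslated exon sequence. Of the promoter members that scored at least as high as the lowest shown, 3 were passed over for the latter reason. Each is the plus strand of mm10. Capitals mark windows of 25 bases whose G4Hunter score, which counts runs of G as positive and runs of C as negative, was at least 1.5 in size, a sign of a predicted G4 on 1 of the strands.

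Scn3a promoter, chr2:65498970-65499105, score 79: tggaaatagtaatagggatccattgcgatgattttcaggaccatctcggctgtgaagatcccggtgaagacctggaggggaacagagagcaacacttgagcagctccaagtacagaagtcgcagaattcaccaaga
Reep1 promoter, chr6:71708040-71708223, score 78: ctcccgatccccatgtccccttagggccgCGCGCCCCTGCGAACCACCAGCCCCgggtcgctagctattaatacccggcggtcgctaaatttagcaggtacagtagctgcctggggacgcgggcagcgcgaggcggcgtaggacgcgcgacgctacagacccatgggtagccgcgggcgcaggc
Fam126a promoter, chr5:23984153-23984284, score 75: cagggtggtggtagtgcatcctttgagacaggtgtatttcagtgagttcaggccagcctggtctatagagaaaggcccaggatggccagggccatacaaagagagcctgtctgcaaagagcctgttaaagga
Rgs7 promoter, chr1:175086099-175086253, score 71: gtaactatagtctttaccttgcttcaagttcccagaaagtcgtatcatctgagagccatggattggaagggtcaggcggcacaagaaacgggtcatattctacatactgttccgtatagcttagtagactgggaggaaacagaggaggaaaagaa
Intergenic member, chr5:42720984-42721131, score 166: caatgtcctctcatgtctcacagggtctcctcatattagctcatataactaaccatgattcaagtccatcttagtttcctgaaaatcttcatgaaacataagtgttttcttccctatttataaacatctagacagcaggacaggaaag

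Of these 5, only the *Reep1* member held a predicted G4, 25 bases of C-rich sequence and so a G4 of the minus strand. It was also the only one that was GC-rich (68.5% GC, with 23 CG dinucleotides). The other 4 ranged from 37.2% to 52.3% GC and had 0 to 4 CG dinucleotides. The 5 do not stand for the top promoter members as a whole. Those at *Shroom4*, *Abr*, *Anks1* and *Zfp113* (scores 75 to 91) overlapped untranslated exon sequence and so are not shown. They had 57.1% to 76.7% GC and each held a predicted G4. The *Fam126a* member was partly repeat-masked (45.5% of its bases), the *Rgs7* and *Reep1* members slightly (16.1% and 3.80%) and the remaining 2 not at all.

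The score in the lists is 10 times the −log10 of the q value, cut to a whole number, in all but 5 of the Cre mock peaks, 5 of GFP mock, 1 of GFP DOX and 2 of Cre DOX, so a score of 20 stands for a q value of 0.01. Members had a median score of 17 (5th to 95th percentile, 12 to 34) and a median fold enrichment over the peak caller's background of 3.35. The other 56477 Cre mock peaks had a median score of 20 and reached 2406, against 166 for the highest member. The members were short, with a median width of 234 bp against 433 bp for the other Cre mock peaks, and 27.0% of them had exactly the narrowest width in the list, 132 bp (other Cre mock peaks, 9.36%). Only 2199 members (6.35%) were in the top decile of Cre mock scores, to which 13.4% of the other Cre mock peaks belonged. The share of Cre mock peaks that were members fell with both measures. It was 55.4% at scores of 10 to 14, 28.9% at 26 to 39, 19.2% at 40 to 99 and 0.535% (3 of 561) at 100 or more. By width it fell from 57.1% under 200 bp to 0.749% at 1600 bp or more. The GFP mock only peaks had the same median score of 17 and a median width of 199 bp.

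**Figure D1:**
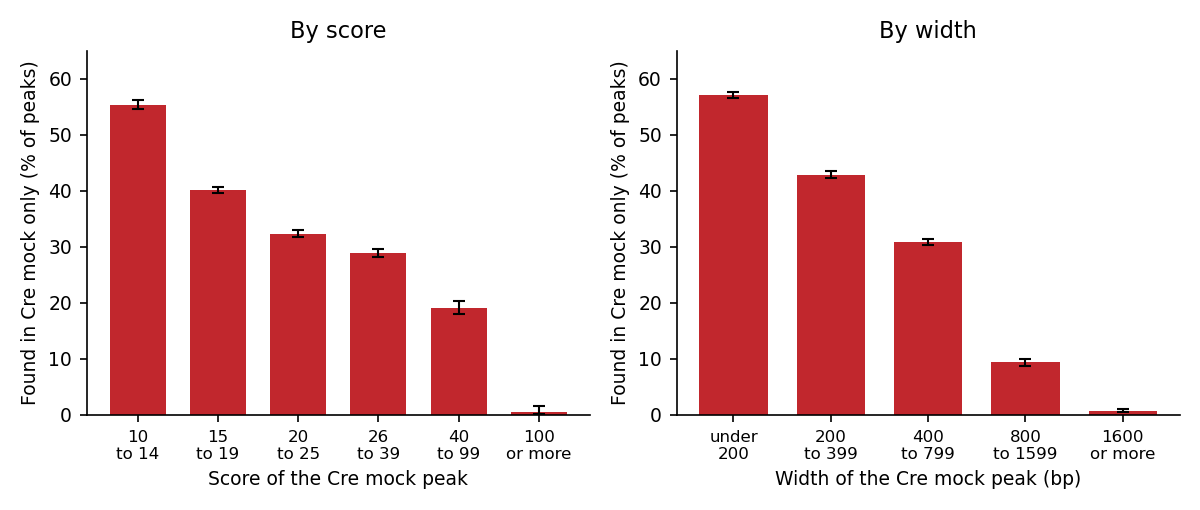
Share of Cre mock peaks that were found in Cre mock only, by the score of the peak (left) and by its width in bp (right). Bars are percentages of the peaks in each band and error bars exact 95% intervals for counting error. The share falls from 55.4% to 0.535% over the score bands and from 57.1% to 0.749% over the width bands.

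The rule turned on single base pairs at its edge. Of the members, 25 touched a peak of another list without overlapping it, such as chr1:181353859-181354064 (score 31, promoter), and 25 Cre mock peaks missed membership by an overlap of 1 bp, such as chr1:19314342-19314502 (score 36, intergenic). Both groups of 25 had a median score of 18. A further reading of the edge is that 2214 members (6.40%) lay within 100 bp of a peak of another list, while 4161 of the other Cre mock peaks (7.37%) overlapped one by at most 100 bp.

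The gaps between members and the other lists' peaks varied widely. The median gap to the nearest of them was 2489 bp (quartiles, 622 and 8799 bp), and 33.1% of members had one within 1 kb and 77.6% within 10 kb. By list, the median gap was 7477 bp to GFP mock, 11843 bp to GFP DOX and 6809 bp to Cre DOX peaks, the longest being to the shortest list. Because the DNA had been cut with 5 restriction enzymes before immunoprecipitation, a hybrid can pull down its whole restriction fragment. In total 81.9% of members lay within 1 predicted fragment, with a median length of 1988 bp, and 32.9% of members shared a fragment with a peak of another list. The same share was lower for GFP mock only peaks (95% interval, 25.5 to 26.5%) and Cre DOX only peaks (22.9%), and higher for GFP DOX only peaks (45.7%).

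The Cre mock peaks that were not members split as follows. In 16188 cases a peak was found in all 3 other lists, and in 13292 cases in Cre DOX alone. A further 5692 peaks were shared with GFP mock alone and 3646 with GFP DOX alone. The remainder overlapped peaks of 2 other lists.

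The members lay mostly in genes. By overlap, and in the order promoter (within 1 kb of any annotated start site), coding exon, other exon, intron and intergenic, 16.5% were in promoters (5706 peaks; 95% interval, 16.1 to 16.9%), 6.82% on coding exons, 4.21% on other exons, 39.0% in introns (13509 peaks) and 33.5% intergenic (33.0 to 34.0%). In the other Cre mock peaks 15.6% were in promoters and 54.2% intergenic, so the members were in genes more often and in promoters about as often. Against GFP mock only peaks the members had more promoters (11.4% there), more coding exons (3.21%) and fewer intergenic peaks (48.7%), and none of these intervals overlapped. GFP DOX only peaks were close to the members in promoters (17.0%) and higher in intergenic peaks (37.9%), and Cre DOX only peaks were the farthest from them (6.94% and 60.1%). Judged by midpoints, which do not depend on peak width, coding exons held 3.22 times as many members as their share of the genome, promoters 2.49 times, other exons 1.96 times and introns 1.14 times. Intergenic sequence held 0.647 of its share. For GFP mock only peaks the same ratios were 1.76, 1.74, 0.887, 0.960 and 0.936.

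**Figure D2:**
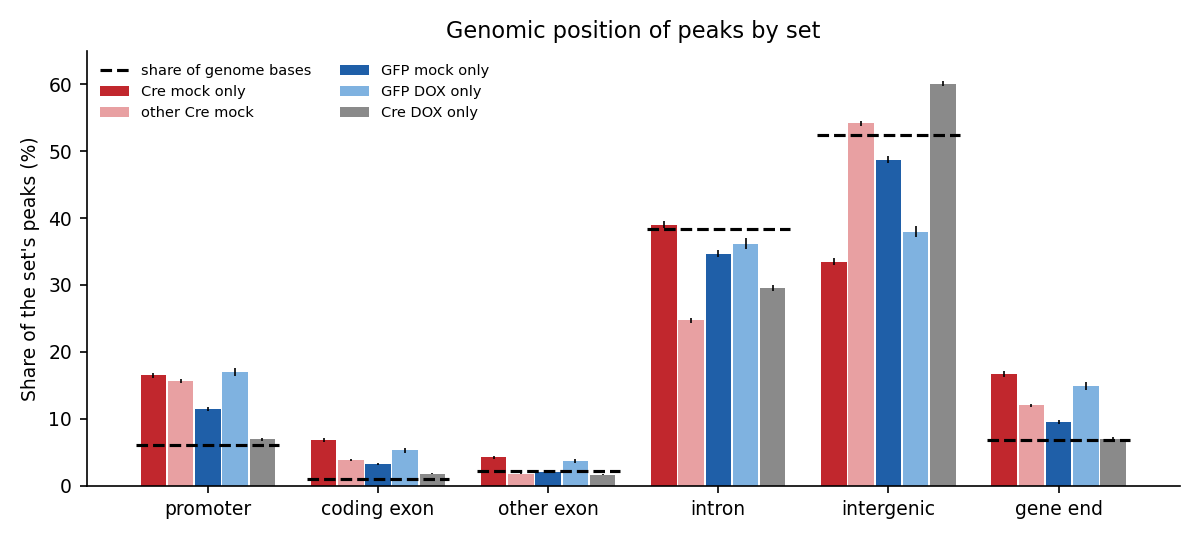
Share of peaks in each genomic position for the members and 4 other sets. Bars are percentages of the set's peaks by overlap, error bars exact 95% intervals for counting error, and dashed lines the share of genome bases. Gene ends (within 1 kb of a transcript end) cut across the other positions. The members have 33.5% intergenic peaks against 54.2% in the other Cre mock peaks.

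These differences in position were also seen among peaks of like width. From 200 bp to under 400 bp, 17.6% of members were in promoters, 6.69% on coding exons and 32.8% intergenic. The other Cre mock peaks of that width had 12.3%, 2.48% and 57.1%. GFP mock only peaks of that width had 11.9% in promoters and 48.3% intergenic. Among peaks of like score the promoter order turned at higher scores, with 15.5% of members and 19.2% of other Cre mock peaks at scores of 26 to 39 and 17.3% and 19.3% at 40 to 99. Repeat content moved with position. The median member was 22.9% repeat-masked, the median of the other Cre mock peaks 95.2% that of GFP mock only peaks 50.9%, of GFP DOX only peaks 27.1% and of Cre DOX only peaks 93.9%. Among peaks that were at most 50% masked (67.6% of members), 21.5% of members, 42.8% of other Cre mock, 18.3% of GFP mock only and 24.7% of GFP DOX only peaks were in promoters. For Cre DOX only peaks the share was 19.6%. The order of members and other Cre mock peaks was thus turned there. Intergenic shares in those peaks were 23.0%, 17.6%, 35.0% and 23.7% in the same order, and 30.8% for Cre DOX only peaks. Both shares of the Cre DOX only peaks were thus nearer to those of the members than among all peaks. The part of repeat content in these differences was not tested beyond this.

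The distance to start sites showed the same closeness to genes. The median member lay 7386 bp from the nearest annotated start site (quartiles, 2209 and 20988 bp) and 7170 bp from the nearest transcript end. The medians were 13503 and 13961 bp for the other Cre mock peaks 11180 and 11760 bp for GFP mock only and 16736 and 16565 bp for Cre DOX only peaks. GFP DOX only peaks were nearly as close as the members, at 7598 and 7914 bp. Within 1 kb of a start site, 53.6% of the 5215 member midpoints lay downstream, that is, inside the transcribed unit (95% interval, 52.2 to 54.9%). Within 1 kb of a transcript end, 46.8% lay downstream, beyond the end (45.4 to 48.1%), and the rest before it.

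Around the start sites of protein-coding transcripts the members peaked in the first 250 bp downstream, where 2.52% of them lay. That was 4.97 times their level at 3 to 5 kb on either side. The other Cre mock peaks were sharper there (3.05%, 10.5 times) and the GFP mock only peaks were similar in sharpness (4.79 times). Around transcript ends the members peaked in the last 250 bp before the end (2.01%), 4.08 times their flanking level. GFP DOX only and GFP mock only peaks were highest in the same 250 bp, at 4.10 and 2.45 times their flanks. The other Cre mock and Cre DOX only peaks were highest in the first 250 bp beyond the end, at 4.11 and 2.16 times.

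**Figure D3:**
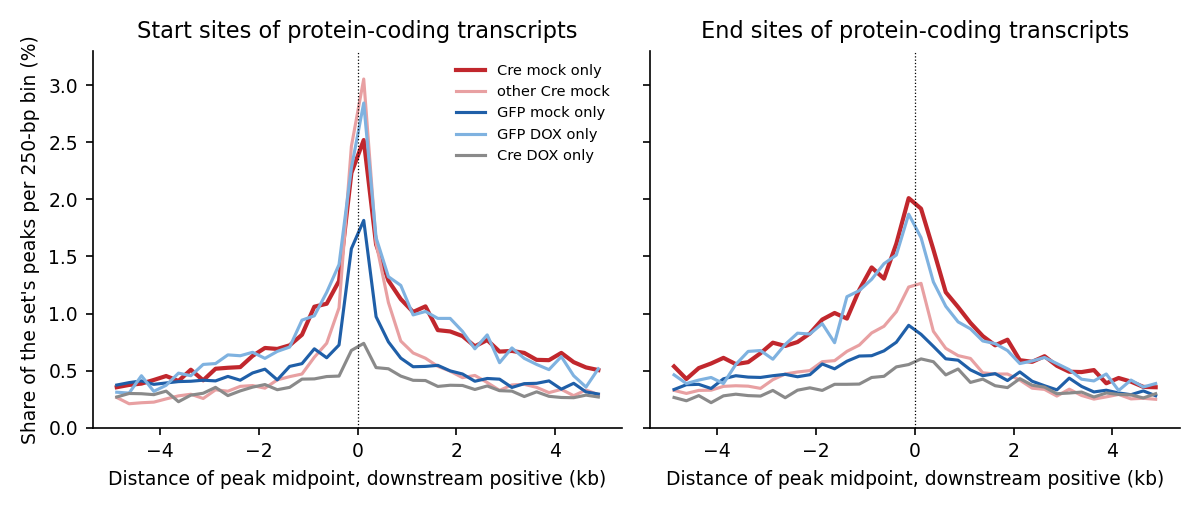
Peak midpoints around start sites (left) and end sites (right) of protein-coding transcripts, as the share of each set's peaks per 250-bp bin against the distance in kb, with downstream positive. The members (thick line) reach 2.52% just after start sites and 2.01% just before end sites, and GFP mock only peaks 1.82% and 0.897%.

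Members were also frequent at gene ends. In total 5782 members (16.7%; 95% interval, 16.3 to 17.1%) lay within 1 kb of a transcript end, a zone that makes up 6.88% of the genome. The same share was between 11.7 and 12.3% (95% interval) of other Cre mock, 9.54% of GFP mock only, 14.9% of GFP DOX only and 6.99% of Cre DOX only peaks. Without those that also touched a promoter, 10.1% of members and 5.75% of GFP mock only peaks lay at gene ends. Among peaks at most 50% masked the shares with promoters kept in were 21.5% and 14.2%, and the other Cre mock peaks had 31.7%. GFP DOX only peaks, at 21.2%, were close to the members there, and Cre DOX only peaks had 18.4%.

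Along the bodies of 17798 protein-coding genes of at least 5 kb, the members formed a shallow U. The first 5% of the gene held 1.46 times as many as an even spread would give, the middle of the gene 0.928 times, and the last 2 steps of 5% held 1.24 and 1.30 times. GFP DOX only peaks had a similar course, with 1.72 times in the first and 1.33 times in the last step. GFP mock only peaks (1.67 times in the first step) stayed near even along the body after that, between 0.888 (the last step) and 1.07 times, and Cre DOX only peaks (1.21 times in the first) were lowest in the last step, at 0.782 times. The other Cre mock peaks were concentrated at the start (2.52 times) and near even at the end (1.03 times). No test of these differences was possible with 1 library per condition.

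**Figure D4:**
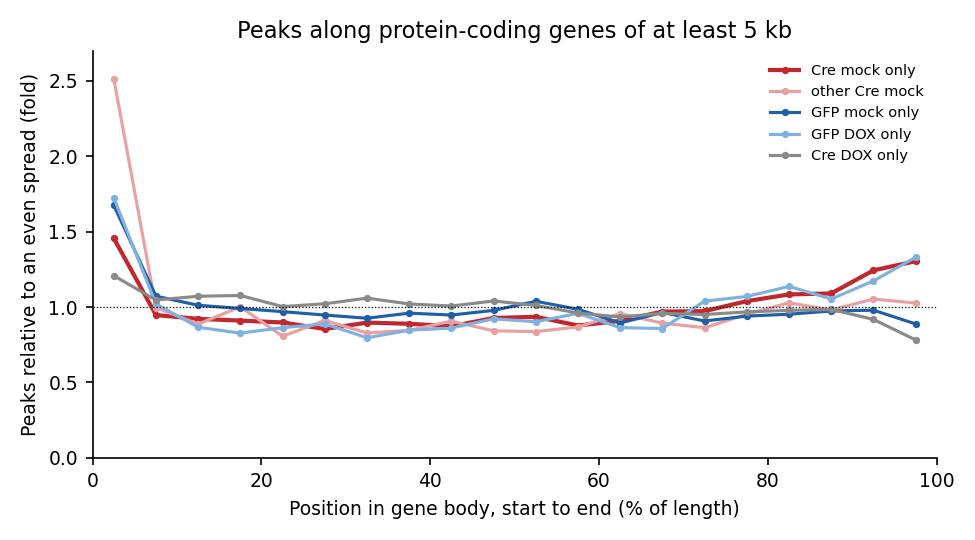
Peak midpoints along protein-coding genes of at least 5 kb, from start to end in steps of 5% of gene length, as fold over an even spread (dotted line at 1). A midpoint in overlapping genes counts once for each. The members (thick line) end at 1.30 and GFP mock only peaks at 0.888.

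The highest-scoring members in promoters of protein-coding genes belonged to genes of varied function. The 8 with the highest scores, of 4633 such members, lay at *Shroom4* (an actin-binding protein; chrX:6399898-6400054, score 91, 6.37-fold), *Abr* (score 82), *Anks1* (an adaptor of Eph receptors; score 80), *Scn3a* (a voltage-gated sodium channel; 79), *Reep1* (which shapes the endoplasmic reticulum; 78), *Zfp113* (a zinc finger protein; 75), *Fam126a* (a partner of a phosphatidylinositol kinase; 75) and *Rgs7* (a regulator of G-protein signalling; 71). The *Shroom4*, *Anks1*, *Reep1* and *Zfp113* members lay close to the start of the gene. Those at *Abr*, *Scn3a*, *Fam126a* and *Rgs7* lay at start sites annotated inside the gene. How isolated they were varied widely. The *Shroom4* member was 31 bp from a GFP DOX peak, while GFP mock and Cre DOX peaks were 3966 and 3956 bp away. The nearest peak to the *Rgs7* member was 101734 bp away, in Cre DOX, and the nearest to the *Scn3a* member was 61938 bp away.

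At gene ends outside promoters the highest-scoring of the 3040 members within 1 kb of an end of a protein-coding transcript lay at *Deaf1* (a transcription factor; score 75, 6.47-fold), near the end of the gene. The next were at *Nsfl1c* (the p47 cofactor of the p97 ATPase; score 61), *Pip5k1c* (a kinase that makes phosphatidylinositol bisphosphate; 59), *Ccdc153* (57) and *Chrna5* (a nicotinic acetylcholine receptor subunit; 56). The *Pip5k1c*, *Ccdc153* and *Chrna5* members were at ends of shorter transcripts inside the gene. On coding exons away from both ends (1417 members) the highest were in *Prkag3* (a regulatory subunit of the AMP-activated kinase; chr1:74745471-74745611, score 83), *Gtf3c3* (a subunit of the transcription factor TFIIIC; 60), *Nid2* (a basement membrane protein; 58), *Mcrip2* (56) and *Otof* (the calcium sensor of hair cell synapses; 55).

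Among 13509 intronic members the highest scores were in *Psd3* (an exchange factor for ARF6; chr8:67718732-67718871, score 91), *Tbx4* (a transcription factor of the hind limb; 79), *Sidt1* (79), *Prkcz* (an atypical protein kinase C; 79) and *Acot12* (an acyl-CoA thioesterase; 77). The highest 2 members of all were intergenic. They were chr5:42720984-42721131 (score 166, 9.44-fold), 512 kb from the nearest protein-coding start site, that of *Cpeb2*, and chr11:44296037-44296337 (score 150, 9.40-fold), 104 kb from that of *Il12b*. The other member above 100 (score 101) lay in the promoter of the small nuclear RNA gene *Gm24978* on chromosome 4. The other 3 of the 5 highest intergenic members had *Tmem215* (score 97), *Vmn1r101* (87) and *Dnm1l* (86) as the nearest protein-coding start. Cre DOX had the nearest peak to both of the highest intergenic members, 1565 and 2177 bp away.

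Counted by gene, 11563 of 55450 annotated genes (20.9%) held a member in the body, 5439 in a promoter and 5116 at a gene end. Of the 21951 protein-coding genes, 9355 (42.6%) held one in the body, 4853 at least 2 and 940 at least 5. GFP mock only peaks were fewer in genes, with 9593 genes in all and 7365 protein-coding ones. In total 1100 protein-coding genes had members and no peak of another list anywhere in the body, while 821 had peaks of GFP mock alone, 736 of Cre DOX alone and 273 of GFP DOX alone. Of the 1100, 889 held a single member and 4 held 5 or more. These 4, named after their counts were seen, were *Ctdp1* (the phosphatase that recycles RNA polymerase II; 10 members), *Atp13a1* (an endoplasmic reticulum ATPase; 5), *Fgfr1op* (a centrosomal protein; 5) and *Marf1* (5). In promoters, 1385 protein-coding genes had a member and no peak of another list within 1 kb of any start site.

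Members were densest over short genes. Over protein-coding genes under 10 kb there were 44.0 members per Mb of gene body, over genes of 10 to 50 kb 35.8, of 50 to 200 kb 20.7, of 200 to 500 kb 11.9 and of 500 kb or more 6.34. GFP mock only peaks fell less steeply over the same classes, from 24.9 to 7.75 per Mb, so the members were the denser set in the first 4 classes and the sparser one in the longest genes. Long non-coding RNA genes (lincRNA) held 10.3 members and 12.1 GFP mock only peaks per Mb.

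The protein-coding genes with most members were mostly long. A 4435-kb readthrough model on chromosome 8, *Gm20388*, which spans 71 other protein-coding genes, held 216. *Fgfr2* (a fibroblast growth factor receptor), annotated over 2961 kb with 29 other protein-coding genes inside, held 36. *Gse1* and *Sorcs2* (a sortilin-family receptor) held 32 each, *Mad1l1* (a spindle checkpoint protein) 28, *Zmiz1* (a transcriptional coactivator) 26, the readthrough model *Gm37240* 26, *Kalrn* 25, *Asap1* (an Arf GTPase-activating protein) 23 and *Ubr4* (a ubiquitin ligase of the N-degron pathway) 22. These genes were chosen by their number of members, which favours the Cre mock list in each count that follows. Over *Zmiz1* the Cre mock list held 35 peaks, while the GFP mock, GFP DOX and Cre DOX lists held 11, 12 and 11. Over *Gse1* it held 45 against 24, 21 and 12. Per Mb of gene, *Ubr4* had the most of the 10 (161 members, against 14.6 GFP mock only peaks). It was the only one of them with more members on coding exons (11) than in introns (4).

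Very long genes are linked to fragile sites, where transcription and replication can collide. All 20 listed genes held at least 1, as 92.6% of all protein-coding genes of 500 kb or more did, and the 122 members came to 4.27 per Mb against 6.34 over that length class. The listed genes are longer than the class (median, 1412 against 730 kb), and the class includes *Gm20388* with its 216 members, so the densities are not matched for length. GFP mock only peaks were denser in the same 20 genes (6.54 per Mb), and Cre DOX only peaks denser still (11.3 per Mb). Single genes ranged from 2 members in *Exoc4*, *Lsamp* and *Il1rapl1* to 19 in *Magi2*, a synaptic scaffold. In *Fhit*, a classical fragile-site gene, the 4 lists held 25 (Cre mock), 23 (GFP mock), 17 (GFP DOX) and 49 (Cre DOX) peaks, of which 5 were members. Of 15 genes of neuronal adhesion and axon guidance 13 held a member, at 2.92 per Mb. *Pcdh9* and *Robo2* held none. The share was 86.7% (exact interval, 59.5 to 98.3%), and that interval includes the 92.6% of genes of 500 kb or more. GFP mock only peaks were in all 15, at 4.91 per Mb, and Cre DOX only peaks in 13, at 7.77 per Mb. GFP DOX only peaks were in 10, at 1.05 per Mb. The count for members thus did not stand apart from that of long genes.

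Of 24 genes for factors that process hybrids or G4s, 15 (62.5%; 95% interval, 40.6 to 81.2%) held a member, and that interval includes the 42.6% of all protein-coding genes. They had 29 members or 23.4 per Mb, where all protein-coding genes had 20.1 and those of 10 to 50 kb, the class of the median gene of the list, 35.8 per Mb. Cre DOX only peaks were also in 15 of the 24, at 20.2 per Mb, and GFP mock only peaks in 7, at 7.26 per Mb. *Dna2*, a nuclease and helicase, held 4 members and no peak of either GFP list. *Aqr*, a spliceosomal helicase, and *Wrn*, a RecQ helicase, held 3 each. *Brca1* and *Top1*, a topoisomerase that relaxes DNA ahead of polymerases, held 2 each. *Blm* and *Fancd2* were among those that held none, as was *Rnaseh1*, which had no peak in any list. *Rtel1* itself held 2 members, at chr2:181337947-181338078 (intron, score 14) and chr2:181338882-181339318 (score 21), and 1 Cre DOX peak, but no peak of the GFP lists. A called peak is no measure of DNA copies, so this does not check the deletion.

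Marker genes show where peaks lay and not how strongly a gene was expressed. Of 10 fibroblast markers, 5 held a member (*Fn1*, *Vim*, *Col1a1*, *Col1a2* and *Pdgfrb*), and *Dcn* and *Lum* had no peak in any list. *Fn1*, which encodes fibronectin, held 5 members. The 4 lists had 7 (Cre mock), 0 (GFP mock), 4 (GFP DOX) and 7 (Cre DOX) peaks over it. The Cre mock list also held more peaks than GFP mock over *Vim* (2 against 1) and *Col1a2* (1 against 0). It held fewer over *Col1a1* (6 against 9), *Pdgfrb* (4 against 6), *Pdgfra* (0 against 2) and *Thy1* (0 against 1). Members were also found in 1 of 5 epithelial, 2 of 5 blood and 3 of 5 endothelial marker genes, and GFP mock only peaks in 3 of 10 fibroblast, 3 of 5 epithelial, 2 of 5 blood and 3 of 5 endothelial ones. With 42.6% of all protein-coding genes holding a member and so few genes in each list, the counts for members did not stand apart from that background, which lies within the exact 95% interval of each. The share for GFP mock only peaks was 33.6% of all protein-coding genes.

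Where members lay in clusters, these were mostly in genes. Chained with gaps of at most 10 kb, 7874 members (22.7%; 95% interval, 22.3 to 23.2%) formed 2021 clusters of at least 3. With the peaks of the other lists extended by 1 kb, which leaves fewer members, the share was 12.3%. With nearly as many peaks, GFP mock only formed 1118 clusters that held 11.4% of them, while Cre DOX only formed 3157 that held 23.1% and GFP DOX only 318 that held 8.16%. The other Cre mock peaks, which are more numerous, formed 6371 clusters that held 49.1% of them, with 206 clusters of 10 or more. Clusters of 5 or more numbered 426 in the members, 397 in Cre DOX only, 96 in GFP mock only and 20 in GFP DOX only, and clusters of 10 or more 19, 5, 0 and 0. Of the member clusters, 89.0% touched a protein-coding gene. Their median span was 11.6 kb, and the same share was not computed for clusters of the other sets or for stretches of that length. Clustered members were in promoters more often than the rest (23.8% against 14.3%) and intergenic less often (15.8% against 38.7%), and their median GC content was 50.2% against 47.0%. The Cre mock peak nearest to a member was itself a member in 51.9% of cases, against 24.1% for the other Cre mock peaks. The same shares in the GFP mock list were 50.2% and 24.8%.

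The 5 largest clusters each lay over 1 or 2 protein-coding genes. The first, of 18 members in 65.6 kb (chr4:139429101-139494749), covered the later part of *Ubr4*, and 12 of its members overlapped coding sequence. In that span the lists held 21 (Cre mock), 3 (GFP mock), 8 (GFP DOX) and 8 (Cre DOX) peaks. The second, of 18 members in 74.7 kb (chr2:27960385-28035053), lay within *Col5a1*, a fibrillar collagen gene of fibroblasts, and 12 of its members overlapped coding sequence. The lists held 21, 5, 4 and 4 peaks there, in the same order. The third, of 17 members on chromosome 5, covered *Gcn1l1*, which activates the kinase GCN2, and *Rab35*, a GTPase of endocytic recycling, with 27, 11, 14 and 7 peaks. The fourth, of 13 members on chromosome 2, lay at *Gpr107*, a membrane protein of the Golgi, with 16, 6, 2 and 1 peaks. The fifth, also of 13 on chromosome 2, covered *Fam129b* and the ubiquitin ligase gene *Lrsam1*, with 22, 11, 12 and 10 peaks. Single members of these clusters were modest, with scores between 10 and 34. In each of the 5 the Cre mock list had the most peaks, as the choice of clusters by member number favours.

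Member density followed gene density across the genome. In windows of 1 Mb, members rose from 5.01 per window without a protein-coding gene to 30.6 per window with 20 or more. GFP mock only peaks rose from 8.48 to 22.6, GFP DOX only from 2.23 to 12.2, and Cre DOX only went from 23.1 to 24.9. The rank correlation with the number of protein-coding genes over 2613 windows was 0.67 for members, 0.51 for GFP mock only, 0.56 for GFP DOX only and 0.09 for Cre DOX only peaks. This is a description across windows that share a library, and gene number also moved with GC content, whose correlation with members was 0.73. By chromosome, members ranged from 7.46 per Mb on chromosome 12 to 22.6 per Mb on chromosome 11 among autosomes. Their ratio to GFP mock only peaks per Mb was lowest at 0.946 among autosomes (chromosome 18), was highest on chromosome 7 (9.61 against 8.02 per Mb) and was 0.667 on the X chromosome, where 1150 of 6587 Cre mock peaks (17.5%) were members. The Y chromosome held 2 members and the mitochondrial genome none.

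**Figure D5:**
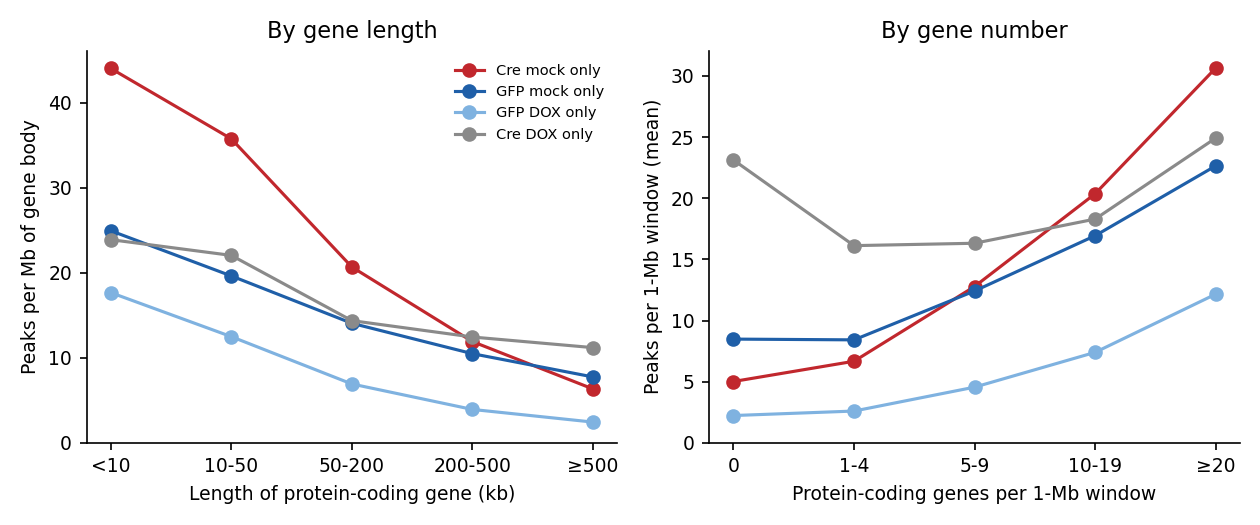
Density of the members and of the 3 mirrored single-list sets, per Mb of gene body over protein-coding genes by length in kb (left) and as the mean number per 1-Mb window by its number of protein-coding genes (right). Members fall from 44.0 to 6.34 per Mb with gene length and rise from 5.01 to 30.6 per window with gene number.

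In base composition the members had a median GC content of 47.7%, against 41.7% for the other Cre mock, 48.3% for GFP mock only, 47.5% for GFP DOX only and 42.1% for Cre DOX only peaks. A predicted G4, by the G4Hunter score used above, was in 25.3% of members (95% interval, 24.8 to 25.7%), in 24.6% of the other Cre mock peaks and in 24.8% of GFP mock only peaks, and the intervals of members and GFP mock only peaks overlapped (24.4 to 25.3% for the latter). It was in 21.3% of GFP DOX only and 16.9% of Cre DOX only peaks. Of all genome stretches of the members' median width of 234 bp, 11.6% held one, and of those in promoters 18.3%. By position, 36.7% of promoter members, 33.4% of those on coding exons, 27.1% of those at gene ends, 22.8% of intronic and 20.6% of intergenic members held one. The promoter share was much lower than in the other, wider Cre mock promoter peaks (65.4%, median width 585 bp against 282 bp) and close to that of GFP mock only (37.9%) and GFP DOX only promoter peaks (35.5%). CpG-rich sequence within the peak was less frequent than in most other sets. The measure covers only the bases of the peak and not the whole promoter. Promoter peaks had a median width of 224 bp in GFP mock only and 242 bp in GFP DOX only, against 282 bp in members. The part of width was not tested. In promoters 18.9% of members reached a GC content of 50% and a ratio of observed to expected CG of 0.6, against 37.0% of the other Cre mock, 25.6% of GFP mock only and 21.9% of GFP DOX only peaks, and the share in Cre DOX only peaks was lower than in members. Telomere repeats (at least 3 units of TTAGGG on either strand), the sequence of chromosome ends, where RTEL1 is known to act, were in 2 members and 73 of the other Cre mock peaks. They are in 0.00386% of genome stretches of 234 bp.

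An excess of G over C on the coding strand is a skew known to favour hybrids. Among members over genes of 1 strand, 11452 had more G than C on the coding strand and 9005 more C than G. Leaving out peaks with equal numbers of both, as in all shares of this kind here, that was 56.0% (95% interval, 55.3 to 56.7%). The share was 57.6% in the other Cre mock, 56.0% in GFP DOX only, 56.5% in Cre DOX only and 52.6% in GFP mock only peaks. In the first 1 kb after start sites it was 59.6% of members and 60.4% of GFP mock only peaks. In introns it was 55.2% of members, 55.4% of GFP DOX only, 55.8% of Cre DOX only and 51.4% of GFP mock only peaks. In the last 1 kb before gene ends outside promoters it was 55.8% of members (53.0 to 58.6%) against 48.5% of GFP mock only (44.2 to 52.7%) and 51.8% of GFP DOX only peaks (46.9 to 56.7%). Some of these members had predicted G4s on 1 DNA strand only. Over gene bodies 49.5% of them had these on the coding strand (48.1 to 50.9%). The share was 48.5% in introns, 47.1% on coding exons and 44.8% in the last 1 kb before gene ends (38.9 to 50.9%). In the first 1 kb after start sites it was 54.5% (50.6 to 58.4%). There it was 57.9% in the other Cre mock, 56.0% in GFP mock only, 54.2% in GFP DOX only and 59.7% in Cre DOX only peaks.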

How the data were processed

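DRIP-seq peak lists of 4 conditions with 1 library each were used, grouped by the labels. Input libraries (4) were not used here. The members and the gene lists were chosen with earlier results of these data known. The authors had trimmed and aligned single-end reads with the nf-core/chipseq pipeline and called peaks for each library with MACS2 on mm10, the tool and build in the submitters' processing notes. Whether inputs served as the control is not stated. The deposited files hold, for each peak, a score, a fold enrichment (the caller's ratio over its local background) and −log10 p and q values. The lists are in the broad-peak format, although the authors' command names narrow peaks. Values of separately called lists are not on 1 scale, so scores and fold values of different lists are set side by side as description only. Lists were compared by peak position and by the sequence under the peaks. Wider or more lenient calling in 1 list changes what counts as found in another only.

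A peak of 1 list was taken as single-list where no peak of the other 3 overlapped it by at least 1 bp. Positions came from GENCODE M21 (55450 genes) and sequence and repeat-masking from GRCm38. G4s were predicted with G4Hunter (window 25, score 1.5). Clusters were chains with gaps of at most 10 kb and at least 3 peaks. Intervals are exact Clopper-Pearson 95% intervals and no test was run. Analyses used Python 3.11.15 with numpy 2.4.6, pandas 2.3.3 and scipy 1.17.1. The overlap, distance and G4Hunter code was tested on simulated data, where 7 checks against plain loops matched everywhere. Peaks named in the text are those with the highest scores in each position (8 in promoters and 5 in each other), the 10 protein-coding genes with most members, the 5 clusters with most members and genes of the lists. Some items that these rules select are not reported here. The alternatives tried concerned the peaks kept, the overlap rule, the annotation, the cluster gap and the G4 definition.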

Additional observations from a re-analysis of the deposited data

How the results depend on the processing

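No paired analysis was possible because each condition has 1 library, labelled replicate 1. Values were set against the 95% interval of the main value (counts, against 1.5 times it), and 11 of 45 alternatives stayed inside. The 6 that left out 1 of the other lists were chosen after seeing the data. Wherever an alternative recomputed them, the members' promoter share, cluster share and number of genes lay above those of GFP mock only peaks, and the intergenic share and the distance to start sites below. The G4 share changed order, and so did the number of peaks. With the other lists' peaks extended by 1 kb there were 23164 members against 23925 GFP mock only peaks. Where a shared restriction fragment counted as overlap there were 23229 against 24499. In the top decile of scores there were 2199 members, with 15.8% in promoters, 39.1% intergenic, a median of 9049 bp to a start site, 1309 genes and 21.8% with a predicted G4. A −log10 q of at least 2 left 12434 members and a width of at least 213 bp 18621, with promoter and intergenic shares of 19.1% and 29.5% for the latter. In members at most 50% masked the shares were 21.5% (promoter), 23.0% (intergenic), 23.8% (clusters) and 27.7% (G4), with a median distance of 5303 bp. With the other lists' peaks extended by 1 kb they were 14.8%, 32.9% and 12.3% in clusters, with 8022 bp. With protein-coding genes only, 13.4% were in promoters and 39.2% intergenic, with 12454 bp. Promoters of 500 bp gave 11.3% and 34.4%, of 2 kb 24.7% and 31.8%, and midpoints 15.1% in promoters. Gaps of 5 and 25 kb put 11.3% and 46.2% in clusters. G4Hunter at 2 gave 10.3% and 4 runs of G 9.32%, where GFP mock only peaks had 10.8% and 10.2%. Without the GFP mock, GFP DOX or Cre DOX list the promoter share was 17.3%, 17.4% or 14.4%. The causes of these shifts were not tested. With unknown depth, absence from a list is no measure of absence of a hybrid.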
